A study of Mus musculus with 3 samples.

Results

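The genes described here are the TNF ligand and receptor superfamilies, in back-skin epidermis of the mouse. They were chosen by name, as every gene whose mouse symbol begins with Tnfsf or Tnfrsf and a digit, and the choice used no measured value. The rule found 32 of the 49377 genes in the files, and each had a row of its own. Of these, 20 encode receptors, 11 encode ligands and 1, Tnfsf13os, is an RNA read from the strand opposite the Tnfsf13 locus. Family genes with other symbols, such as Tnf, Fas and Eda, do not fall under the rule and are given as a list of their own.

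All cells came from wild type C57BL/6 mice of 7 weeks, with the hair follicles of the back in second telogen, a resting phase. Dermis was removed with thermolysin, and the epidermal cells were sorted by their CD34 and alpha 6 integrin (Itga6) protein. S denotes suprabasal bulge stem cells (CD34-positive, low Itga6), B basal bulge stem cells (CD34-positive, high Itga6) and N the CD34-negative cells, a mixture of the other epidermal cells. The RNA in each library was a pool from 4 mice and was preamplified, so there was 1 library for each of 3 populations. No difference below has a replicate error, no test was possible, and each value describes these libraries alone.

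TNF family ligands are trimeric proteins, most of them anchored in the membrane and some released by proteases. Their receptors carry cysteine-rich repeats outside the cell. Inside the cell, some receptors have a death domain that can start apoptosis and others bind TRAF adaptors that activate NF-kappaB and kinase pathways. Decoy and secreted receptors bind a ligand without passing on the full signal. In skin the family is known for the ectodysplasin branch, which is needed for hair follicle formation, for the RANK branch, which acts on epidermal and follicle growth, and for inflammation driven by TNF.

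Levels are FPKM, fragments counted relative to transcript length and library depth, divided by a factor per library (scaled FPKM). As levels per length, they are set side by side between genes, and the effect of preamplification on single genes was not tested. The steps between low values correspond to 31.2 M fragments for S, 32.6 M for B and 35.3 M for N. The S library stood apart in that mitochondrial tRNA held 71.0% of its summed FPKM and 0% in B and in N, so the totals were not used for scaling. The sort gene Cd34 was at 215 in S, 144 in B and 0.201 in N. The bulge genes Lgr5 (40.8 in S, 36.4 in B and 1.05 in N) and Postn (658 in S, 654 in B and 23.6 in N) were high in both bulge libraries. The keratinocyte transcription factor gene Trp63 was at 107 in S, 126 in B and 138 in N, while the keratins Krt14 (12.7 in S, 277 in B and 588 in N) and Krt1 (13.3 in S, 140.1 in B and 258 in N) were highest in N and lowest in S. Krt5, another basal keratin, was at 959.5 in S, 810.2 in B and 818 in N. No gene of the lists for T and NK cells (6 genes), B cells (3), endothelial cells (3), melanocytes (4) and Schwann cells (4) reached a mean of 1. Of the list for Langerhans and myeloid cells 2 of 7 did, and of that for fibroblasts 1 of 6.

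The family was carried by a few receptors. A gene counted as measured when its mean over the 3 libraries was at least 1 scaled FPKM. That held for 12 of 32 members, namely 10 of 20 receptors and 2 of 11 ligands. Of these 12, 5 were below 1 in at least 1 library, namely Tnfrsf11a, Tnfrsf11b, Tnfrsf19, Tnfsf9 and Tnfsf18. They passed through the libraries in which they were high, so a difference between libraries was to be found in them. The other 20 members included 4 that were listed at 0 in every library. In bulk libraries, fewer cells of a type and less RNA per cell cannot be told apart, which holds for every level below.

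**Figure D1:**
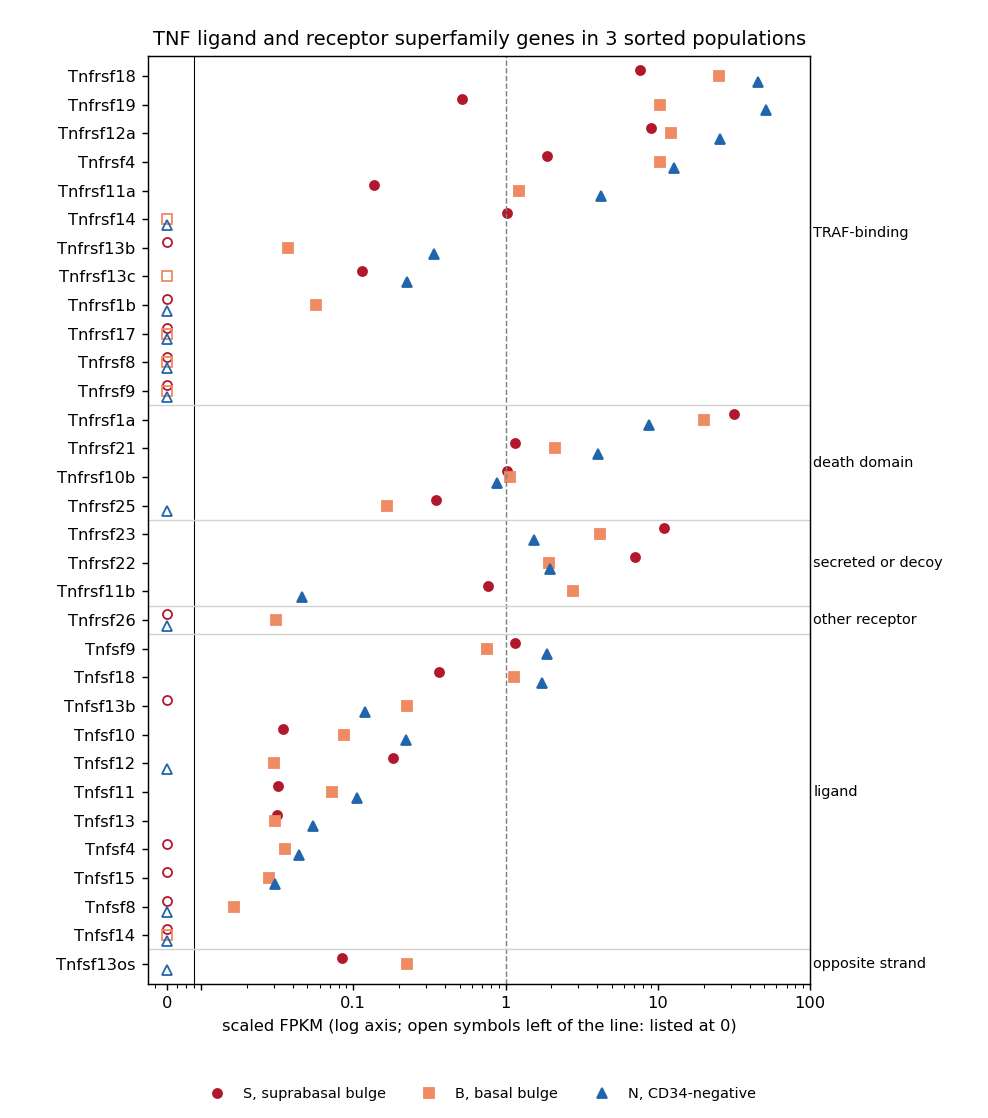
Scaled FPKM of all 32 members (log axis) in the S, B and N libraries, 1 point per library, grouped by role and ordered by mean within a role. Open symbols mark values listed at 0, and the dashed line marks 1. Levels above 10 are seen for Tnfrsf18, Tnfrsf19, Tnfrsf12a, Tnfrsf4, Tnfrsf1a and Tnfrsf23, and no ligand exceeds 1.88.

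The ligand genes were all low. Tnfsf9, which encodes the ligand of the costimulatory receptor CD137 (Tnfrsf9), was at 1.16 in S, 0.759 in B and 1.88 in N. Tnfsf18, the ligand of the receptor GITR (Tnfrsf18), was at 0.367 in S, 1.13 in B and 1.72 in N. Its level was 4.70-fold lower in S than in N (counting interval 2.96 to 7.68). Unless stated otherwise, log2 ratios are taken after a pseudocount of 1 is added to each level, which shrinks differences of low genes. On that scale its log2 ratio was -0.99, just short of the size counted here, which is 1. With a pseudocount of 0.1 it was -1.96. Both ligands were highest in N. Of the windows of 75 bases, the read length, 9.70% of those of Tnfsf9 also lie in Gm11110 on the opposite strand.

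The other 9 ligand genes stayed at or below 0.225 in every library. Tnfsf10, which encodes the death ligand TRAIL, was at 0.0343 in S, 0.0864 in B and 0.223 in N. Tnfsf11, which encodes RANKL, the ligand of RANK, was at 0.0321 in S, 0.0721 in B and 0.106 in N, or about 2 fragments in S, 5 in B and 9 in N. Tnfsf12, which encodes TWEAK, the ligand of Tnfrsf12a, was at 0.183 in S, 0.0300 in B and listed at 0 in N. Of the windows of read length, 48.1% of those of Tnfsf12 and 49.3% of those of Tnfsf13 also occur in the joined gene model Tnfsfm13, so their levels are uncertain. Tnfsf13os, which overlaps Tnfsf13 on the opposite strand, was at 0.0842 in S, 0.227 in B and listed at 0 in N. Tnfsf14, the ligand of HVEM, was listed at 0 in all 3 libraries. Ligands together held 2.41% of the summed level of the family in S, 2.56% in B and 2.59% in N.

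Among the TRAF-binding receptors, the measured ones were all highest in N, lower in B and lowest in S. The widest range was that of Tnfrsf19 (chr14:60963834-61046855, mm10, ENSMUSG00000060548), which encodes TROY, a receptor related to the ectodysplasin receptor and known from hair follicles and the nervous system. Its level was 0.514 in S, 10.4 in B and 50.9 in N, resting on about 60 fragments in S, 1343 in B and 8046 in N. It was 99.1-fold lower in S than in N (counting interval 76.8 to 129.8) and 4.91-fold lower in B than in N (counting interval 4.64 to 5.21). Between the bulge layers it was 20.2-fold lower in S than in B (counting interval 15.6 to 26.6). Tnfrsf19 was the most abundant member in N and was below 1 in S.

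A pair of adjacent receptor genes showed the same order. Tnfrsf18 (chr4:156026164-156028895, ENSMUSG00000041954) encodes GITR and Tnfrsf4 (chr4:156013843-156016612, ENSMUSG00000029075) encodes OX40, both known as costimulatory receptors of T cells. Tnfrsf18 was at 7.67 in S, 25.3 in B and 45.7 in N, and Tnfrsf4 at 1.87 in S, 10.3 in B and 12.8 in N. Tnfrsf18 was 5.96-fold lower in S than in N (counting interval 5.24 to 6.80) and 3.30-fold lower in S than in B (counting interval 2.88 to 3.80). Tnfrsf4 was 6.85-fold lower in S than in N (counting interval 5.16 to 9.13) and 5.50-fold lower in S than in B (counting interval 4.11 to 7.39). The differences of B from N were smaller, with log2 ratios of -0.83 for Tnfrsf18 and -0.29 for Tnfrsf4, neither past the size counted. Tnfrsf18 was 1.80-fold lower in B than in N (counting interval 1.67 to 1.95), and its log2 ratio was -0.99 with the values as deposited. In both genes the difference of S from B was thus larger than that of B from N.

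As both genes are known from T cells, the T and NK cell genes are given beside them. The 6 genes of that list summed to 1.72 in S, 1.11 in B and 1.96 in N. The highest single value was that of Cd3e in N. This gene, which encodes a chain of the T cell receptor complex, was at 0.487 in S, 0.292 in B and 1.18 in N, and Cd3d was listed at 0 in S and stood at 0.0412 in B and 0.0505 in N. Cd3g was at 0.311 in S, 0.482 in B and 0.106 in N, and Nkg7, known from cytotoxic cells, at 0.374 in S, 0.168 in B and 0.0341 in N, so the genes of the list did not share an order. The part of T and NK cells in the levels of Tnfrsf18 and Tnfrsf4 was not tested. The 7 Langerhans and myeloid genes summed to 9.83 in S, 8.28 in B and 20.2 in N, and their part in the levels of the pair was not tested. Of these, H2-Aa, an antigen presentation gene, was at 4.51 in S, 4.81 in B and 13.5 in N, and Cd74, of the same pathway, at 3.99 in S, 3.03 in B and 6.19 in N. Cd207, the defining Langerhans cell gene, was at 0.343 in S, 0.220 in B and 0.126 in N, and Lyz2, a myeloid gene, at 0.756 in S, 0.0816 in B and 0.178 in N, both highest in S.

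The measured neighbours of the pair differed in their order. The gene bodies of Tnfrsf4 and Tnfrsf18 are 9.55 kb apart on the same strand of chromosome 4. On one side, Sdf4, which encodes a calcium-binding protein of the secretory pathway, was at 25.1 in S, 25.3 in B and 14.2 in N. On the other side, Ttll10, a tubulin ligase family gene, was at 6.17 in S, 4.10 in B and 1.50 in N, with log2 ratios of 1.52 for S over N and 1.03 for B over N. The secreted protein gene C1qtnf12, farther out, was at 177 in S, 110.0 in B and 29.5 in N. Pusl1 (2.52 in S, 4.14 in B and 4.78 in N) and Acap3 (1.43 in S, 1.70 in B and 3.30 in N) had the same order as the pair, with log2 ratios of S over N of -0.72 for Pusl1 and -0.82 for Acap3. Among the measured protein-coding genes whose bodies reach within 150 kb of Tnfrsf4, Tnfrsf4 and Tnfrsf18 were the ones with log2 ratios below -1 for S over N. A share of 15.1% of the read-length windows of Tnfrsf18 also lies in its antisense gene Gm16008, which was at 0.363 in S, 0.603 in B and 0.568 in N. Whether the counting used strand is not given in the sources, so reads of a gene and of its antisense partner cannot be told apart.

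**Figure D2:**
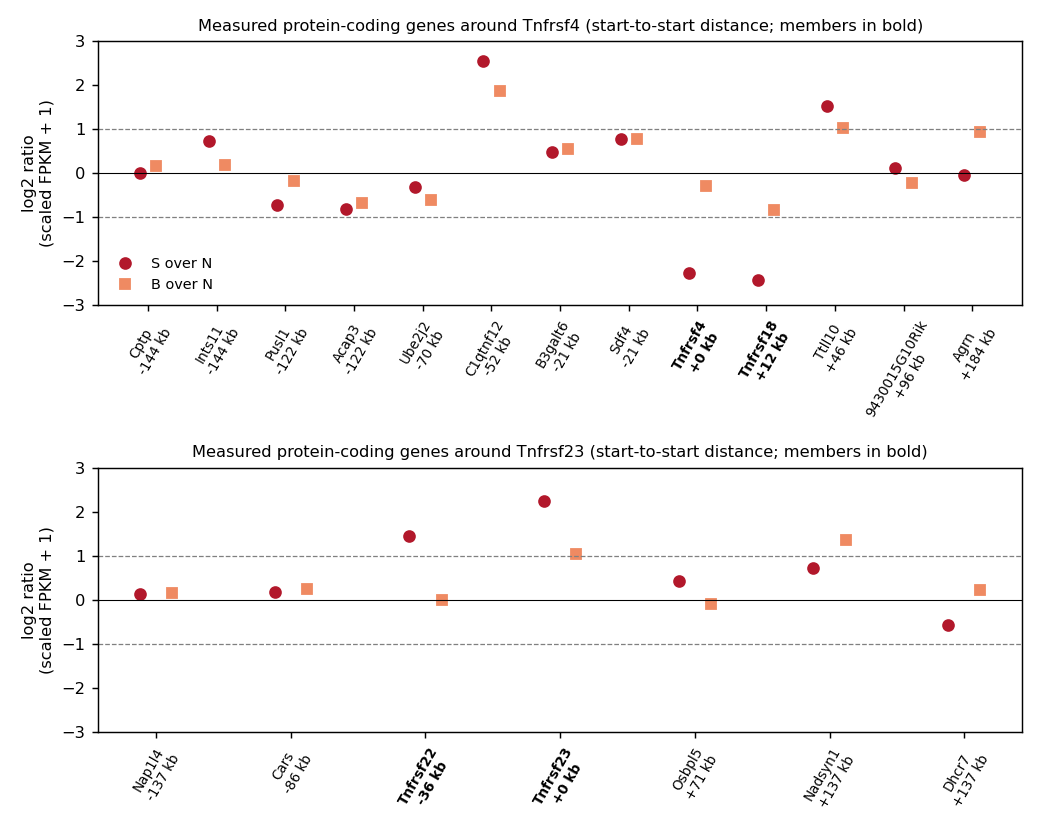
Log2 ratios (scaled FPKM plus 1) of S over N and B over N, 1 point per gene and comparison, for measured protein-coding genes whose bodies reach within 150 kb of Tnfrsf4 (top) and Tnfrsf23 (bottom), in chromosome order and not to scale, with the distance between gene starts under each name. Tnfrsf4 and Tnfrsf18 lie below the dashed line of -1 for S over N between neighbours that do not, and Tnfrsf22 and Tnfrsf23 lie above the line of 1 for S over N.

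The start regions of Tnfrsf19, Tnfrsf18 and Tnfrsf4 are shown because these receptors had the lowest ratios of S over N among the members above 10 scaled FPKM in N. Each run is the RefSeq window (GRCm38.p6) of 250 bases before to 50 after an annotated start, 5′ to 3′ on the strand of the gene. Capitals mark matches on either strand, overlaps allowed, of 4 motifs. The NF-kappaB form was GGG and CC with any 5 bases between them. The AP-1 form was TGANTCA, the GC box was GGGCGG and the TATA box was TATAAA. For Tnfrsf19 the table holds 2 starts, the first printed being that at the 5′ end of the gene body and the other an internal one. The annotated starts of Tnfrsf18 and Tnfrsf4 do not coincide with the 5′ ends of the gene bodies given above.
Tnfrsf19 (chr14:61046806-61047105, minus strand): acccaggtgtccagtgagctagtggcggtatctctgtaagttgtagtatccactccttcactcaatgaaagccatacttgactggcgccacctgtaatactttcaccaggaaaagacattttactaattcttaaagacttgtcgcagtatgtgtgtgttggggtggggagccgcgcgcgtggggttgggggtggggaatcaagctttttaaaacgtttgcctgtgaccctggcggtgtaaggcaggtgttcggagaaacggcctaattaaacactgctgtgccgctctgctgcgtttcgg
Tnfrsf19, internal start (chr14:61037938-61038237, minus strand): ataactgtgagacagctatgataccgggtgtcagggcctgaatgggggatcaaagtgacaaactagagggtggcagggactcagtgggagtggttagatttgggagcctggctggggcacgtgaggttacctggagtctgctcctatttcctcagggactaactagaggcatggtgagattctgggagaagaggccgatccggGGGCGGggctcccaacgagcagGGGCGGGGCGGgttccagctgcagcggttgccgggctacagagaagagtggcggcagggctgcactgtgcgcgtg
Tnfrsf18 (chr4:156026072-156026371, plus strand): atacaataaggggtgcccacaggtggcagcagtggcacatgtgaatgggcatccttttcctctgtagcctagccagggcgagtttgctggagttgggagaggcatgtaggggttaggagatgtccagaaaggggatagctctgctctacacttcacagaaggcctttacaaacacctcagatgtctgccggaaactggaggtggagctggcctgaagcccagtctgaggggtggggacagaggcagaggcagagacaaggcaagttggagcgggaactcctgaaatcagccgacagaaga
Tnfrsf4 (chr4:156013445-156013744, plus strand): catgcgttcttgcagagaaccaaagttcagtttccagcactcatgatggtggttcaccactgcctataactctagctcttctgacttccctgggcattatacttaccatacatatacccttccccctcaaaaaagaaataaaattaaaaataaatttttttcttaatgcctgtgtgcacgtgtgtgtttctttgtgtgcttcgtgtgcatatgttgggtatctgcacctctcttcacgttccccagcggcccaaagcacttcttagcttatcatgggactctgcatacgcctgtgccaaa
The windows of Tnfrsf18, of Tnfrsf4 and of the 5′ start of Tnfrsf19 hold none of these motifs, and that of the internal start of Tnfrsf19 holds GC boxes only. This is not shared by all members with the order of N over B over S. The windows of Tnfrsf12a and Tnfrsf11a, described next, each hold the NF-kappaB form at 2 positions and the GC box at 5. Among all 32851 windows of this length in the table, 50.8% hold the NF-kappaB form, 7.81% the AP-1 form, 35.7% the GC box and 13.6% the TATA box. Of the 28 windows of members, 15 (53.6%) hold the NF-kappaB form, close to the share of all windows. The AP-1 form is in 6 (21.4%), the GC box in 12 (42.9%) and the TATA box in 4 (14.3%). The windows with the AP-1 form all belong to members that were not measured, and 2 of them are overlapping windows of Tnfsf13b. A match is a run of letters and no measured binding site.

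Tnfrsf12a and Tnfrsf11a had the same order at other levels. Tnfrsf12a (chr17:23675447-23677449, ENSMUSG00000023905) encodes the TWEAK receptor FN14, known to be induced by injury and growth factors, and was at 8.96 in S, 12.3 in B and 25.6 in N. It was 2.86-fold lower in S than in N (counting interval 2.49 to 3.30) and 2.09-fold lower in B than in N (counting interval 1.86 to 2.36). Its ratio of B over N was near the size counted, with a log2 ratio of -1.01, and it was short of that with other scalings (-0.87 with the sum over nuclear protein-coding genes made equal and -0.95 with the upper quartile made equal). Tnfrsf11a (chr1:105780718-105847981, ENSMUSG00000026321) encodes RANK, and was at 0.138 in S, 1.23 in B and 4.26 in N, about 20 fragments in S, 197 in B and 835 in N. It was 30.9-fold lower in S than in N (counting interval 19.8 to 50.7) and 3.47-fold lower in B than in N (counting interval 2.97 to 4.08).

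Of the TRAF-binding receptors that were not measured, Tnfrsf14, which encodes HVEM, was at 1.03 in S, about 35 fragments, and was listed at 0 in B and N. Tnfrsf13b and Tnfrsf13c, both receptors of B cells, were at most 0.337. Tnfrsf1b, the second TNF receptor, was listed at 0 in S and N and stood at 0.0571 in B. Tnfrsf8, Tnfrsf9 and Tnfrsf17, known from activated lymphocytes and plasma cells, were listed at 0 in all 3 libraries.

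Among the death receptors, Tnfrsf1a went the other way from the TRAF-binding receptors. Tnfrsf1a (chr6:125349362-125362484, ENSMUSG00000030341) encodes the main receptor of TNF on most cells, and was at 31.5 in S, 20.0 in B and 8.80 in N, about 1956 fragments in S, 1379 in B and 740 in N. It was 3.58-fold higher in S than in N (counting interval 3.29 to 3.90) and 2.27-fold higher in B than in N (counting interval 2.08 to 2.49). Between the layers the difference was smaller, 1.58-fold higher in S than in B (counting interval 1.47 to 1.69). With the values as deposited its log2 ratio of B over N was 0.94, just under the size counted, against 1.10 after scaling.

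Tnfrsf21, which encodes death receptor 6, was at 1.15 in S, 2.12 in B and 4.05 in N and was 3.52-fold lower in S than in N (counting interval 2.89 to 4.33). Tnfrsf10b, the mouse receptor for TRAIL, was close to 1 in each library, at 1.01 in S, 1.06 in B and 0.878 in N, just under the mean required. Its log2 ratios were 0.10 for S over N and 0.13 for B over N. Tnfrsf25, death receptor 3, was at 0.347 in S, 0.166 in B and listed at 0 in N.

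The decoy and secreted receptors were highest in a bulge library. Tnfrsf23 (chr7:143665809-143685872, ENSMUSG00000037613) and Tnfrsf22 (chr7:143634806-143649661, ENSMUSG00000010751) encode mouse decoy receptors for TRAIL. Tnfrsf23 was at 11.0 in S, 4.19 in B and 1.53 in N, and Tnfrsf22 at 7.07 in S, 1.94 in B and 1.95 in N. In S, Tnfrsf23 was 7.17-fold higher than in N (counting interval 5.70 to 9.11) and 2.62-fold higher than in B. Tnfrsf22 was 3.62-fold higher in S than in N (counting interval 3.18 to 4.13) and 3.65-fold higher in S than in B (counting interval 3.16 to 4.20). B and N were level for Tnfrsf22 (log2 ratio -0.01), whereas Tnfrsf23 had a log2 ratio of 1.04 for B over N, which was 0.93 with the values as deposited.

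The third gene of the chromosome 7 cluster, Tnfrsf26, lies 6.08 kb from Tnfrsf22 and was listed at 0 in S and N and at 0.0309 in B. The coding sequences of Tnfrsf22 and Tnfrsf23 in GENCODE M21 are 90.7% identical over 528 aligned bases, and that of Tnfrsf26 is 62.5% identical to Tnfrsf22. Receptors outside the cluster gave similar values with Tnfrsf22, at 56.8% for Tnfrsf18, 64.2% for Tnfrsf4 and 67.4% for Tnfrsf10b. Of the windows of read length, 22.8% of those of Tnfrsf23 also occur in Tnfrsf22, and 7.89% of those of Tnfrsf22 in Tnfrsf23. Reads of those windows could have been counted for either gene, so the split between the pair is uncertain. Counted over all other genes, 21.4% of the windows of Tnfrsf22 and 24.6% of those of Tnfrsf23 also occur elsewhere. The level of Tnfrsf22 is thus uncertain beyond the split within the pair. Exons of Tnfrsf23 also overlap the antisense gene E230032D23Rik, which was listed at 0 in S and stood at 0.220 in B and 0.178 in N. Outside the cluster, the measured neighbours Cars (3.58 in S, 3.76 in B and 3.04 in N) and Osbpl5 (12.9 in S, 8.79 in B and 9.43 in N) had log2 ratios of S over N of 0.18 for Cars and 0.42 for Osbpl5. Farther out, Nadsyn1 had log2 ratios of 0.72 for S over N and 1.37 for B over N. Dhcr7 had -0.58 for S over N and 0.22 for B over N, and Nap1l4 0.12 and 0.15.

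Tnfrsf11b (chr15:54250619-54278484, ENSMUSG00000063727) encodes osteoprotegerin, a secreted decoy for RANKL. Its level was 0.763 in S, 2.76 in B and 0.0461 in N, about 62 fragments in S, 248 in B and 5 in N, with B the highest. It was 59.8-fold higher in B than in N (counting interval 25.6 to 188) and 3.61-fold lower in S than in B (counting interval 2.72 to 4.84). In S it was 16.6-fold higher than in N (counting interval 6.82 to 53.5). Its log2 ratio of S over N was 0.75, short of the size counted, and 2.56 with a pseudocount of 0.1. The ratios to N rest on the few fragments there. The 6 fibroblast genes summed to 2.58 in S, 2.11 in B and 0.575 in N, and their part in the level of Tnfrsf11b was not tested. Col1a2, the measured one among them, was at 1.34 in S, 1.77 in B and 0.103 in N, Pdgfra at 0.442 in S, 0.0772 in B and 0.00623 in N and Dcn, highest in N, at 0.386 in S, 0.123 in B and 0.440 in N. The receptor RANK (Tnfrsf11a) and its decoy ran in opposite orders between B and N, at 1.23 in B and 4.26 in N for the receptor, and at 2.76 in B and 0.0461 in N for the decoy.

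The start regions of Tnfrsf1a and Tnfrsf23, higher in both S and B than in N, are shown with the same marks. The window of Tnfrsf1a begins at 125349473 and lies wholly inside the gene body, which begins at 125349362, so it belongs to an internal start.
Tnfrsf1a (chr6:125349473-125349772, plus strand): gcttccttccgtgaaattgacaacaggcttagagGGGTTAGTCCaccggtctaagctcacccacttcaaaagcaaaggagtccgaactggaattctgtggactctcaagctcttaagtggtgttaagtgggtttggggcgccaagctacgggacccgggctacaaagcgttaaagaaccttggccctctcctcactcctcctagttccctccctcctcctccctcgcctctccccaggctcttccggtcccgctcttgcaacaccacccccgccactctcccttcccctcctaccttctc
Tnfrsf23 (chr7:143685826-143686125, minus strand): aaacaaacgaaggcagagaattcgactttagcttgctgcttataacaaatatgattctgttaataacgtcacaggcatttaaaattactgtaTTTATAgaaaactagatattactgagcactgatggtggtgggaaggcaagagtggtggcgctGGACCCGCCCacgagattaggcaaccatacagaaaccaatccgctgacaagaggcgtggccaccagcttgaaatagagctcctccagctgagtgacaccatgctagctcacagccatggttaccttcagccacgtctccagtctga
The window of Tnfrsf1a holds the NF-kappaB form once, and that of Tnfrsf23 holds the NF-kappaB form, overlapping a GC box, and a TATA box on the opposite strand. These are matches of letters in windows among which 50.8% hold the NF-kappaB form.

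The comparisons are set against all 11598 measured genes, where a gene was called higher at a log2 ratio of 1 or more and lower at -1 or less (a 2-fold difference once a pseudocount of 1 is added). In S against N, 3 of the 12 measured members were higher (Tnfrsf1a, Tnfrsf22 and Tnfrsf23) and 6 lower (Tnfrsf19, Tnfrsf18, Tnfrsf4, Tnfrsf11a, Tnfrsf12a and Tnfrsf21), where 9.58% of all measured genes were higher and 10.9% lower (20.5% in either direction). The median log2 ratio was -1.11 over the members and 0.02 over all measured genes. With the values as deposited the members split into 3 higher and 7 lower (Tnfsf18 in addition), and all genes into 7.40% higher and 14.5% lower. With a pseudocount of 0.1, 4 members were higher (Tnfrsf11b in addition) and 7 lower (Tnfsf18 in addition). Of all genes, 13.7% were then higher and 14.0% lower.

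In B against N, 3 members were higher (Tnfrsf1a, Tnfrsf23 and Tnfrsf11b) and 3 lower (Tnfrsf19, Tnfrsf11a and Tnfrsf12a), where 7.27% of all measured genes were higher and 7.11% lower (14.4% in either direction). The medians were -0.52 over the members and -0.04 over all. As deposited, 1 member was higher and 3 were lower, and of all genes 6.19% were higher and 9.48% lower. Both comparisons use the N library, so they are not independent of each other.

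In S against B, 2 members were higher (Tnfrsf22 and Tnfrsf23) and 4 lower (Tnfrsf19, Tnfrsf4, Tnfrsf18 and Tnfrsf11b), where 3.90% of all measured genes were higher and 5.93% lower (9.83% in either direction). The medians were -0.59 over the members and 0.06 over all. Tnfrsf11a, with a log2 ratio of -0.97, was just short. Without the pseudocount its level was 8.92-fold lower in S than in B (counting interval 5.59 to 14.8). With a pseudocount of 0.1 its log2 ratio was -2.48. The number of members is small, and libraries of pooled RNA give no error for these shares. Of the members called in these comparisons, Tnfrsf19, Tnfrsf11a and Tnfrsf11b were below 1 in at least 1 library. They passed the filter through the libraries in which they were high, which favours a call.

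**Figure D3:**
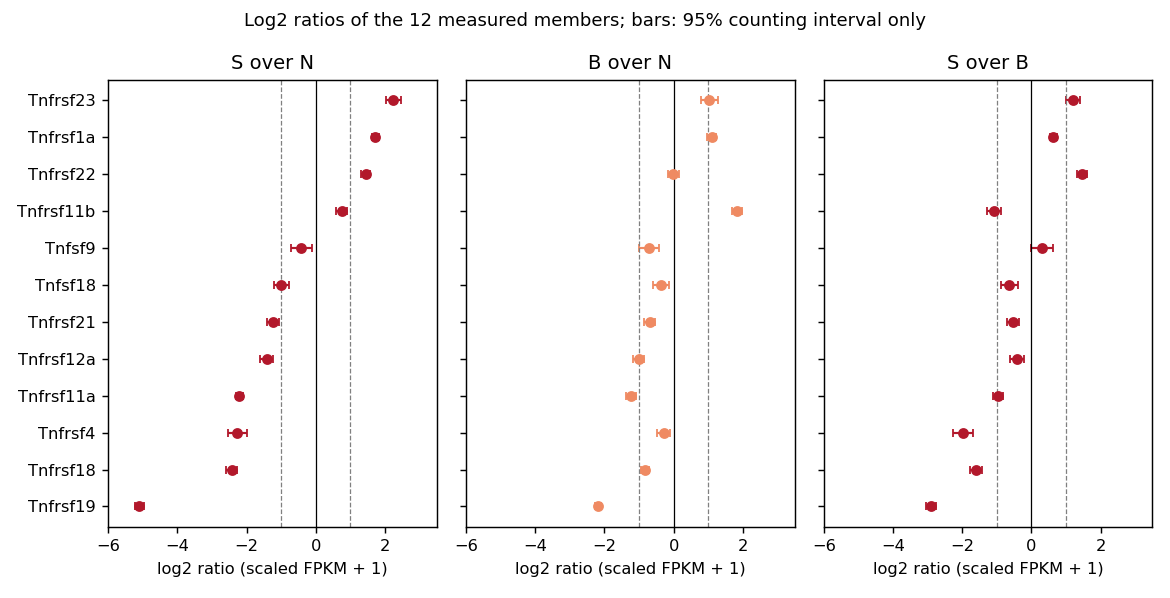
Log2 ratios (scaled FPKM plus 1) of the 12 measured members for S over N, B over N and S over B, with bars for the 95% counting interval, which covers counting error and not differences between mice or from amplification. Dashed lines mark -1 and 1. Tnfrsf19 has the lowest ratio in each panel (-5.10, -2.19 and -2.91), and Tnfrsf22 and Tnfrsf23 are above 1 in both panels with S on top.

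By order of the 3 levels, 7 of the 12 measured members ran from N highest over B to S lowest, an order found in 21.9% of all measured genes. The opposite order, S highest and N lowest, held for 2 members, Tnfrsf1a and Tnfrsf23, against 26.6% of all measured genes. Krt14 and Krt1 had the same order as the larger group, and whether the share of differentiating or CD34-negative keratinocytes bears on it was not tested.

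The make-up of the family therefore differed between libraries. The ligand genes summed to 1.81 in S, 2.42 in B and 4.18 in N, and the other members to 73.2 in S, 92.1 in B and 157 in N. In S, Tnfrsf1a held 42.0% of the level of all 32 members, followed by Tnfrsf23 with 14.6%. In B, Tnfrsf18 held 26.8% and Tnfrsf1a 21.2%. In N, Tnfrsf19 held 31.5% and Tnfrsf18 28.3%, and Tnfrsf1a 5.45%. The 5 most abundant members held 88.2% in S, 82.8% in B and 89.2% in N.

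**Figure D4:**
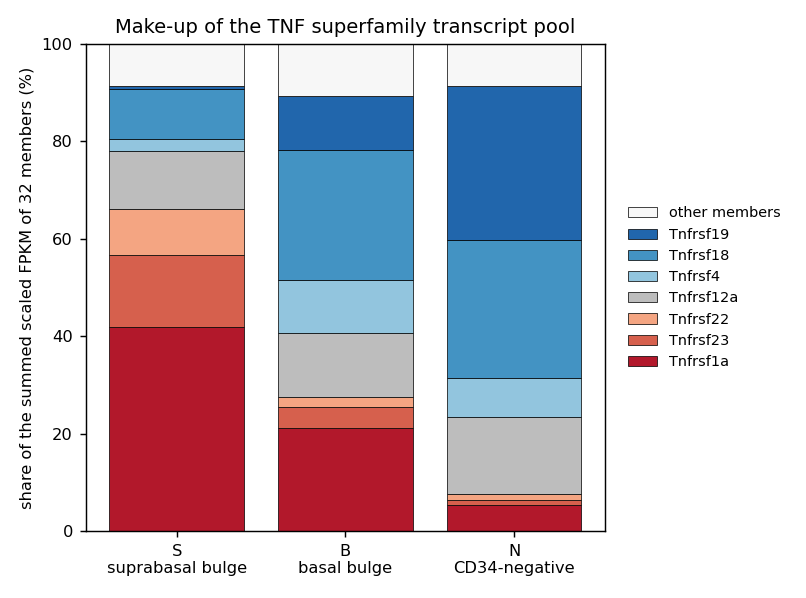
Share of the summed scaled FPKM of the 32 members (percent) held by 7 receptors and by the other members in the S, B and N libraries, 1 bar per library. Tnfrsf1a takes 42.0% in S, 21.2% in B and 5.45% in N, and Tnfrsf19 takes 0.685% in S, 11.0% in B and 31.5% in N.

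Of 15 family genes under other symbols, 3 were measured. Eda, the ligand ectodysplasin, was at 3.76 in S, 2.62 in B and 0.586 in N, and was 6.41-fold higher in S than in N (counting interval 5.23 to 7.87) and 4.47-fold higher in B than in N (counting interval 3.63 to 5.52). Its receptor gene Edar was listed at 0 in S and stood at 0.0258 in B, about 3 fragments, and 0.0211 in N, about 3. Eda2r, the receptor of the other ectodysplasin isoform, was at 0.344 in S, 0.611 in B and 2.00 in N. Fas, the death receptor for Fas ligand, was at 0.176 in S, 3.33 in B and 6.05 in N, and rests on about 8 fragments in S. It was 34.3-fold lower in S than in N (counting interval 16.2 to 75.4) and 18.9-fold lower in S than in B (counting interval 8.81 to 41.9). Ltbr, the lymphotoxin beta receptor, was at 3.62 in S, 2.17 in B and 3.52 in N.

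Tnf itself was below the mean required, at 0.0256 in S, 0.138 in B and 1.37 in N, or about 1 fragment in S, 7 in B and 88 in N. Its highest level was in N, where its receptor gene Tnfrsf1a had its lowest, and S and B cannot be ordered at so few fragments. Lta was listed at 0 in S and N, Fasl in S and B, and Ltb, Cd40lg and Cd70 in all 3 libraries. Ngfr, a neurotrophin receptor of the family, was at 0.0404 in S, 0.536 in B and 1.01 in N.

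The counts of the following lists stand beside 10.9% of all measured genes lower in S against N, 7.11% lower in B against N and 5.93% lower in S against B. Of the 17 adaptor and death signalling genes, 11 were measured, and most were short of the size counted. In S against N 0 were higher and 2 lower, in B against N 0 higher and 2 lower, and in S against B 0 were past the size counted in either direction. The 2 lower genes were the same in both comparisons. Birc3, which encodes an inhibitor of apoptosis that NF-kappaB induces, was at 6.93 in S, 9.59 in B and 22.0 in N. Edaradd, the adaptor of the ectodysplasin receptor, was at 1.69 in S, 1.91 in B and 4.90 in N. The TRAF adaptor gene Traf2 was at 1.84 in S, 1.41 in B and 3.30 in N. It was 2.35-fold lower in B than in N (counting interval 1.93 to 2.87), with a log2 ratio of -0.84 after the pseudocount. The most abundant gene of the list was Birc2, a relative of Birc3, at 19.7 in S, 16.8 in B and 20.6 in N. Ripk1, the kinase that decides between survival and death below Tnfrsf1a, was at 7.63 in S, 8.92 in B and 13.8 in N, and Casp8, the caspase of death receptors, at 6.75 in S, 7.70 in B and 7.18 in N. The median log2 ratio was -0.08 for S over N, -0.27 for B over N and -0.09 for S over B.

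Of the 22 NF-kappaB core genes, 19 were measured, with 0 higher and 2 lower in S against N, 0 higher and 2 lower in B against N, and 0 higher and 1 lower in S against B. The share lower in S against N was near the 10.9% of all measured genes. Tnfaip3, a feedback inhibitor of TNF signalling that NF-kappaB induces, was at 2.39 in S, 8.86 in B and 25.5 in N, and was 10.7-fold lower in S than in N (counting interval 9.53 to 12.1) and 3.71-fold lower in S than in B (counting interval 3.27 to 4.22). Rel, the c-Rel subunit, was at 3.20 in S, 5.31 in B and 18.4 in N, and was 5.77-fold lower in S than in N (counting interval 5.32 to 6.25). In B against N the lower genes were these same genes, with log2 ratios of -1.43 for Tnfaip3 and -1.62 for Rel. Nfkb2, another subunit gene, was at 1.11 in S, 0.989 in B and 2.30 in N. It was 2.06-fold lower in S than in N and 2.32-fold lower in B than in N. After the pseudocount its log2 ratios were -0.64 and -0.73, short of the size counted. Rela, the main transactivating subunit, was at 5.58 in S, 3.74 in B and 4.83 in N, and the inhibitor gene Nfkbia, the most abundant of the list, at 29.9 in S, 30.8 in B and 40.0 in N. The median log2 ratio was -0.13 for S over N, -0.32 for B over N and 0.12 for S over B.

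Of the 16 NF-kappaB target genes, 9 were measured. In S against N 0 were higher and 2 lower, in B against N 0 higher and 1 lower, and in S against B 0 higher and 2 lower. The lower genes were Cxcl1, a neutrophil chemokine, at 0.423 in S, 2.29 in B and 7.63 in N, and Icam1, an adhesion molecule for leukocytes, at 0.226 in S, 1.69 in B and 4.22 in N, of which Cxcl1 alone was past the size counted in B against N. Zfp36, an RNA-decay factor and the most abundant of the list, was at 66.4 in S, 72.1 in B and 115 in N. The summed level of the Langerhans and myeloid genes given above was likewise highest in N, carried there by H2-Aa and Cd74, while Cd207 and Lyz2 were highest in S, and its part in these levels was not tested. Ier3, an early response gene, was highest in S, at 51.4 in S, 29.9 in B and 35.2 in N. The medians were -0.79 for S over N, -0.54 for B over N and -0.12 for S over B.

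Of the 5 genes for release of ligands and receptors from the membrane, all were measured and 0 were past the size counted in any comparison. Adam17, the protease that releases TNF and its receptors, was at 14.7 in S, 9.83 in B and 11.6 in N. Adam10, a related protease, was at 4.70 in S, 4.34 in B and 8.86 in N, and Rhbdf2, which helps Adam17 to mature, at 1.84 in S, 2.31 in B and 4.06 in N.

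**Figure D5:**
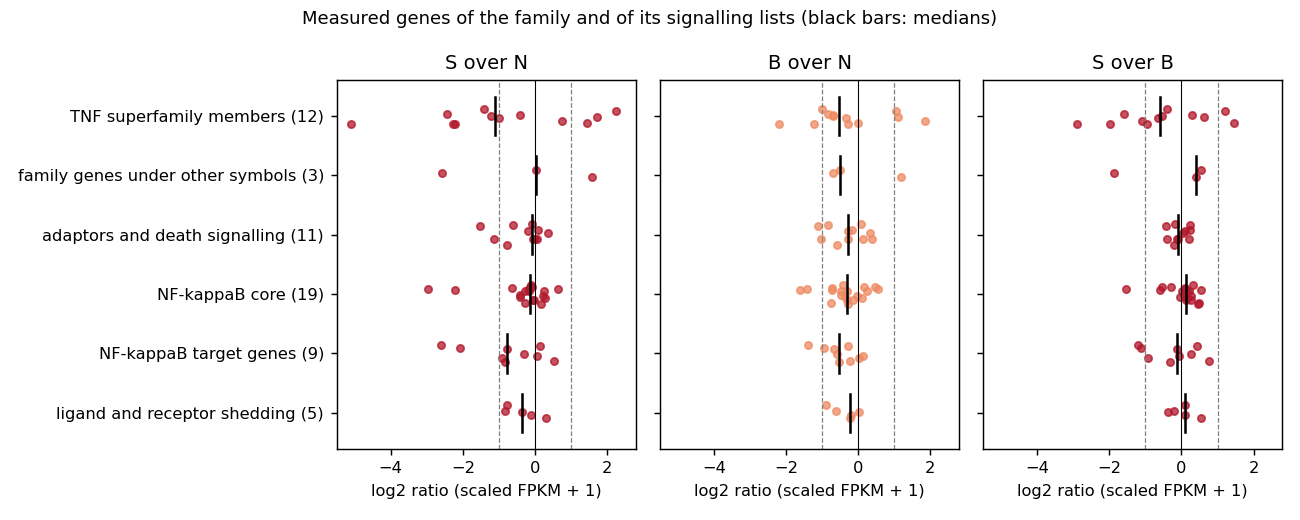
Log2 ratios (scaled FPKM plus 1) of the measured genes of the family and of 5 signalling lists, 1 point per gene, with black bars for medians and the number of genes in brackets. Vertical jitter has no meaning. The members span -5.10 to 2.24 for S over N, while in the list of adaptors and death signalling the points lie between -1.54 and 0.37.

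Set side by side, several receptor transcripts were more abundant than those of their ligands. In N, Tnfrsf18 stood at 45.7 and its ligand gene Tnfsf18 at 1.72, Tnfrsf4 at 12.8 and Tnfsf4 at 0.0437, and Tnfrsf11a at 4.26 and Tnfsf11 at 0.106. In S, Tnfrsf1a stood at 31.5 and Tnf at 0.0256, and Tnfrsf12a at 8.96 and Tnfsf12 at 0.183. Osteoprotegerin (Tnfrsf11b) stood at 0.763 in S and 2.76 in B, and its ligand gene Tnfsf11 at 0.0321 in S and 0.0721 in B. In N, Tnfrsf11b at 0.0461 (about 5 fragments) and Tnfsf11 at 0.106 (about 9 fragments) cannot be ordered. The ligand transcript was the more abundant one for Eda in S, at 3.76, where Edar was listed at 0. The same held among others for Tnfsf9, whose receptor gene Tnfrsf9 was listed at 0 in each library, and for Tnf in N, at 1.37, set against its second receptor gene Tnfrsf1b, listed at 0. RNA of dermal cells was not measured here.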

How the data were processed

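The deposited files give FPKM values per Ensembl gene, per the file headers for N and S. The column for B names no unit, and its low values have the same steps. The submitters' processing notes list mm10, Cufflinks 2.1.1, TopHat2 2.0.12 and DESeq2 without saying what each did. For annotation and filters on reads, the sources used here say nothing. Per the labels' protocols, epidermis was separated with thermolysin (0.25 mg/ml, 1 h), and RNA was amplified from poly(T) and random primers and read as pairs of 75 bp.

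Symbols were found for 49195 of 49452 rows, rows of a symbol were summed, and each library was scaled by a median-of-ratios factor from 18618 genes above 0 in all libraries (0.923 for S, 0.981 for B and 1.10 for N). Totals were not used, because in S a share of 71.0% of all FPKM was mitochondrial tRNA. The main log2 ratios use a pseudocount of 1 and understate differences of low genes. Depth was read from values of single-exon genes of at least 3000 bp, where 95.7% to 97.0% of values under 10 fragments were whole to within 0.1. Fragments per gene are approximate (depth times FPKM times the longest coding transcript in GENCODE M21). The 95% intervals are exact binomial intervals on them and cover counting error only. Coordinates are those of the files (1-based). Promoter windows were found for 24 of 32 members. Members were taken by the symbol rule, and the lists were chosen with earlier results of these data known. Up to 4 genes of a list were named per comparison by ratio, plus the most abundant, and further list genes were named for their role after their values were seen. The calls were tested on simulated data. Python 3.11.15, pandas 2.3.3 and SciPy 1.17.1 were used.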

Additional observations from a re-analysis of the deposited data

How the results depend on the processing

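Each comparison has 1 library per population, so no result has a replicate check, and no paired analysis was possible because each population has a single library. All counts of members were recomputed under 7 alternatives (3 scalings, a pseudocount of 0.1, no filter, a mean of at least 5, and the highest row per symbol). Members higher in B than in N numbered 1 with the values as deposited, against 3, since Tnfrsf1a and Tnfrsf23 came to 0.94 and 0.93 on the log2 scale. Members higher in S than in B numbered 1 with a mean of at least 5, against 2, since Tnfrsf22 was then left out. The other counts stayed within 1.5 times. Of 140 recomputed log2 ratios of members past the size counted, 140 kept their sign and 4 fell below 1 in size, all for B over N. Values as deposited moved the median of all genes to -0.18 for S over N and -0.18 for B over N. A transcript of 2 kb at 1 FPKM has a counting SD of 11.9% to 12.7%, so most ligands are too low for an order between libraries.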
